A study of Mus musculus with 5 samples.

Results

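Luminal-derived basal cells (LdBC) of the mouse mammary gland were set against both other sorted epithelial populations, basal and luminal, to find transcripts at a level that lay outside the range of the 2 populations they share features with. The comparison used 2 LdBC libraries of 5 libraries in all, with 2 basal libraries and 1 luminal library as the other 3. A gene was counted as above when both LdBC libraries exceeded all 3 others, and as below when both were under all 3. LdBC were lineage-negative, CD24+, CD29hi and GFP+. Basal cells had the same lineage, CD24 and CD29 gates but were TdTomato+. Luminal cells were lineage-negative, CD24+, CD29low and GFP+. The animals behind every library were adult virgin mice whose ovaries had been removed and that had carried hormone pellets for 14 days, so no library shows the gland without surgery or pellets. Each library was made from about 50 sorted cells by a Smart-seq2 protocol. The hormones in the pellets, the driver of the reporters and whether the libraries of a group came from separate mice are not given in the sources used here, so a p-value speaks only for how these libraries scattered, and that scatter may be technical.

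The mammary epithelium has an inner luminal layer, which holds the hormone receptor-positive cells and the progenitors of milk-secreting alveolar cells, and an outer basal layer of contractile myoepithelial cells. During pregnancy the alveolar progenitors turn on casein and whey protein genes and package milk fat from lipid droplets. CD29 (integrin beta 1) is abundant on basal cells and CD24 on luminal cells, which is why the pair is used to sort the layers, and a GFP+ cell in the basal gate therefore carries the reporter of the sorted luminal cells with a basal surface profile.

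The luminal library stood apart in completeness, and this bears on every count of genes above. Genes above 0 numbered 9201 and 10627 in LdBC 1 and 2, 10979 and 10834 in Basal 1 and 2 and 8041 in the luminal library. Genes that a library listed at 0 while every other held an FPKM of 10 or more numbered 26 and 0 in LdBC, 2 and 5 in basal and 162 in the luminal library. FPKM is the fragment number of a gene relative to transcript length and library size. FPKM values hold no read counts, so the depth behind them is unknown and a value listed at 0 may be a missed transcript. The labels were checked against defining markers. Krt8, a simple-epithelial keratin, had 8153 and 6685 FPKM in LdBC, 441 and 324 in basal and 5708 in luminal cells. Krt14, a basal keratin, had 751 and 992 FPKM in LdBC, 2682 and 2206 in basal and 0 in luminal cells. Acta2, the smooth muscle actin of myoepithelial cells, had 349 and 820 FPKM in LdBC, 3941 and 3800 in basal and 0 in luminal cells. LdBC thus held Krt8 above the luminal level together with Krt14 and Acta2 under the basal level.

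Of 10626 genes with a mean FPKM of at least 1, 1564 lay above all 3 other libraries (14.7%) and 825 lay below (7.76%). A further 1899 genes (17.9%) lay between the 2 populations. The remaining genes had both LdBC libraries inside the range of the other 3 without lying between the populations (2088 genes) or had LdBC libraries at different positions (4250 genes). The split between directions depended on scaling. As deposited, 65.5% of the genes outside the range were above. With median-of-ratios scaling the counts were 1328 above and 1096 below (54.8% above), and with quantile normalization they were 1331 and 1261 (51.4%). The median difference of all genes, LdBC minus the mean of the 3 others, was 0.14 on the log2 scale as deposited and 0.01 after either rescaling, so small differences above are not separated from this shift. Of the 1564 genes above, 1035 (66.2%) kept that position under both rescalings, as did 638 of the 825 below (77.3%).

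Most genes outside the range were close to it. The gap, which is the distance on log2(FPKM + 1) between the nearer LdBC library and the nearest other library, had a median of 0.50 for genes above and 0.42 for genes below. It was over 1 in 419 genes above and 182 below, over 2 in 136 and 46, and over 4 in 16 and 3. At the edge of the rule, the splicing gene Snrpd2 was just inside (299 and 345 FPKM in LdBC, 265 and 229 in basal, 299 in luminal) and the aldolase gene Aldoc just outside (264 and 336 in LdBC, 16.7 and 11.9 in basal, 264 in luminal). On the low side Med28 was just inside (10.7 and 12.2, 12.2 and 12.5, and 31.0 in the same order) and Ndufa11 just outside (33.1 and 34.8, 35.0 and 34.7, and 78.9). For the genes above, the nearest library was Basal 1 for 674, Basal 2 for 520 and Luminal for 370. The luminal library listed 610 of the genes above at 0. Among the 7744 genes that it detected, 954 lay above (12.3%) and 825 below (10.7%), a filter that can remove genes above but none below. Without genes at 0 in any library, 893 lay above and 546 below (62.1% above). All 3 other libraries were at 0 in 79 of the genes above, and both LdBC libraries were at 0 in 96 of the genes below.

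Genes above made up 41.3% and 36.7% of all summed FPKM in LdBC 1 and 2, against 21.8% and 21.3% in basal and 15.3% in luminal libraries. Genes below made up 2.56% and 3.38% in LdBC, against 8.92% and 9.08% in basal and 6.96% in luminal. The rule chose these genes by these values, so the shares describe how much of the transcriptome is involved and are no test. The 2 LdBC libraries were within 2-fold of each other in 82.2% of the genes above and 73.3% of the genes below. In bulk samples such as these, a higher level in every cell and a larger share of cells with the transcript cannot be told apart.

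No gene passed the test for a difference between LdBC and the other 3 libraries. In limma, with Benjamini-Hochberg adjustment over 10626 genes, 0 genes were called higher (0%) and 0 lower (0%), with a smallest adjusted p of 0.116. At an unadjusted p under 0.05 there were 1427 higher and 990 lower genes. The stricter question, whether a gene differed in the same direction from basal and from luminal cells, also gave 0 calls in each direction, with 414 higher and 179 lower genes at an unadjusted p under 0.05 for both differences and a smallest adjusted p of 0.697. With 2 residual degrees of freedom most genes named below had an adjusted p of 0.137 in limma, and the positions are given as descriptions. The 0 calls depended on the filter on low values, since at a mean FPKM of at least 5 there were 63 higher and 88 lower calls. Without genes at 0 in any library there were 58 and 4. Without the luminal library the contrast became LdBC against basal cells alone, a different question, with 51 genes called higher and 5 lower.

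**Figure D1:**
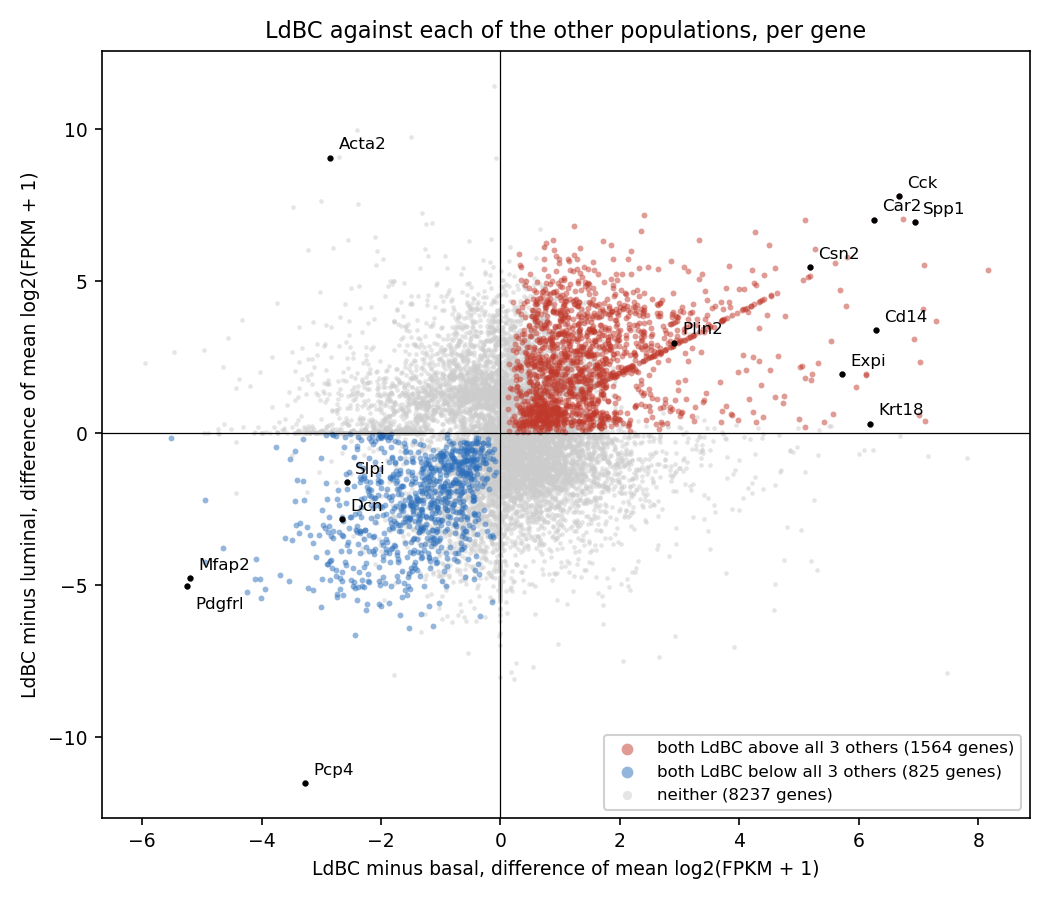
Each point is 1 of 10626 genes, placed by its difference of mean log2(FPKM + 1) in LdBC minus basal (x axis) and LdBC minus luminal (y axis). The 1564 genes with both LdBC libraries above all others (red) fill the upper right part and the 825 below (blue) the lower left, with Cck, Spp1 and Car2 far up to the right and Pdgfrl and Mfap2 far down to the left. The dense diagonal line in the red field holds genes listed at 0 in all 3 other libraries.

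The 4 genes that mark LdBC encode secreted, surface and lipid droplet proteins. Spp1 encodes osteopontin, a secreted phosphoprotein found in milk (chromosome 5, 104435118 to 104441050, plus strand, GRCm38). LdBC held 81.0 and 182 FPKM of it, and all 3 other libraries listed it at 0. Cck encodes the peptide hormone cholecystokinin (chromosome 9, 121489824 to 121495694, minus strand). It had 209 and 236 FPKM in LdBC, 3.76 and 0 in basal and 0 in luminal cells, so the lower LdBC library was 55.5 times the highest other. Cd14 encodes a co-receptor for bacterial lipopolysaccharide and marks luminal progenitors. It had 1106 and 896 FPKM in LdBC, 17.1 and 7.95 in basal and 93.3 in luminal cells, a smallest ratio of 9.60. Plin2 encodes perilipin 2, the coat protein of lipid droplets (chromosome 4, 86648386 to 86670060, minus strand). It had 526 and 440 FPKM in LdBC, 65.1 and 61.3 in basal and 60.0 in luminal cells. The 3 other libraries were nearly level for Plin2, and both LdBC libraries stood at least 6.76 times over them. The log2 difference from the mean of the 3 others was 7.05 (SE 0.83) for Cck, 5.33 (SE 0.39) for Cd14 and 2.93 (SE 0.17) for Plin2, each with an adjusted p of 0.137 in limma. These 4 genes were known from earlier results of these data to stand high in LdBC.

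Leaving out predicted genes, the 12 genes with the largest gaps, from 4.28 to 6.36, include Spp1 and Cck but neither Cd14 nor Plin2, whose gaps were 3.25 and 2.74. Bcl2l15, a member of the BCL2 family of cell death regulators, had 179 and 94.8 FPKM in LdBC, 0 and 0.506 in basal and 0 in luminal cells. Car2, a carbonic anhydrase that hydrates carbon dioxide (chromosome 3, 14886273 to 14900770, plus strand), had 116 and 172 in LdBC, 2.29 and 0.0567 in basal and 0.0926 in luminal cells. Ptpn18, a tyrosine phosphatase, had 38.5 and 65.7 in LdBC, 0 and 0 in basal and 0.969 in luminal cells. The other 7 genes of the leading 12 were listed at 0 in all 3 other libraries. Il1rn encodes the antagonist of the interleukin 1 receptor and had 38.4 and 31.2 FPKM in the LdBC libraries. Wfdc3, which encodes a protein with a whey acidic protein domain, had 34.8 and 65.0 in LdBC. Enpp3, an ectoenzyme that cleaves extracellular nucleotides, had 29.1 and 42.8 in LdBC. Marveld3, a tight junction protein, had 26.3 and 18.8, and Slc13a2, a transporter of citrate and other dicarboxylates, had 21.3 and 18.4 in LdBC. Spns2, the exporter of sphingosine-1-phosphate, had 48.5 and 21.4, and its family member Spns3 had 24.9 and 19.4 in LdBC. The pair lies 5014 bases apart on chromosome 11.

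**Figure D2:**
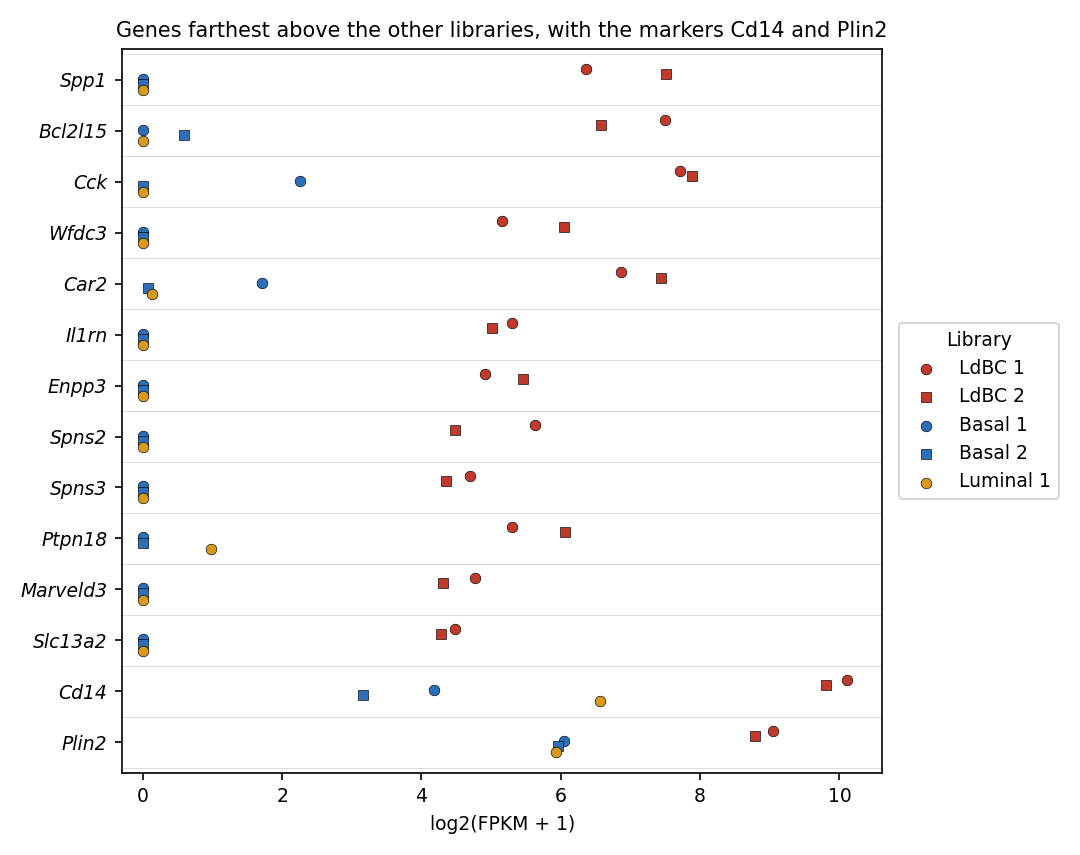
The log2(FPKM + 1) of the 12 genes with the largest gap above the other libraries, and of Cd14 and Plin2, in each library (red LdBC, blue basal, yellow luminal; circle replicate 1, square replicate 2). In 8 of the 12 leading genes, Spp1 among them, all 3 other libraries are at 0, whereas Cd14 and Plin2 are detected in all 5 libraries.

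The 250 bases before the gene starts of the 2 markers with the largest gaps and of the casein gene Csn1s1 show what lies directly upstream of such genes (RefSeq, GRCm38.p6; 5′ to 3′ on the strand of the gene). The windows were searched on both strands for TTCNNNGAA, the form bound by STAT factors, and for CACGTG, the E-box form bound by MITF, TFE and MYC family factors. Both motifs read the same on either strand and do not overlap each other here, and capitals mark a match. Spp1 (chr5:104434861-104435110, plus strand) held neither, Cck (chr9:121495695-121495944, minus strand) held CACGTG with its first base at position -66 from the start, and Csn1s1 (chr5:87665958-87666207, plus strand) held TTCNNNGAA at -100.
Spp1: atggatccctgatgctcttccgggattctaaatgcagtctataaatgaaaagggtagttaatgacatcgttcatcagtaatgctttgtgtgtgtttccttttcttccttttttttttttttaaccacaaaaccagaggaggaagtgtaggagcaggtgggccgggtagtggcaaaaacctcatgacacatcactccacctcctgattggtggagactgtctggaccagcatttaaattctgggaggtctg
Cck: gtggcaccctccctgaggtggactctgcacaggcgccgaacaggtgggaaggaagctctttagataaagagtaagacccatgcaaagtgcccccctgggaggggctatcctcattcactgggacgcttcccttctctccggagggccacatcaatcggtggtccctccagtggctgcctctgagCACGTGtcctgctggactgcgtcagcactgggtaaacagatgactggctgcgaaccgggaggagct
Csn1s1: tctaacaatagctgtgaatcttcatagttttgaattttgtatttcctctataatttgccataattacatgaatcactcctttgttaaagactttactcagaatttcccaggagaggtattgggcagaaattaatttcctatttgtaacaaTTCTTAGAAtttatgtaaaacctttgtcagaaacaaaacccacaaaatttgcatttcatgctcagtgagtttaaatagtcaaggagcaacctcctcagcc
Over all 27025 promoter windows of the same length, 7.18% held TTCNNNGAA and 6.05% held CACGTG. The window of Csn2 held TTCNNNGAA at -93, and the windows of Csn1s2a, Lalba and Wfdc18 had no match to it. A match describes letters and is not evidence of a bound site.

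Milk protein genes had the largest share above among the lists with at least 10 tested members. Of 16 tested members, 12 lay above (75%, against 14.7% of all genes) and 0 below, with a median difference of 4.17 on the log2 scale against 0.14 over all genes. The luminal library listed 6 of these 12 at 0. Median-of-ratios scaling left 11 above and quantile normalization 12. Csn1s2a, which encodes an alpha-S2 casein, had 612 and 3136 FPKM in LdBC, 22.7 and 0 in basal and 32.3 in luminal cells. Csn3, the casein that stabilises the micelle, had 2629 and 1298 in LdBC, 51.4 and 1.63 in basal and 141 in luminal cells. The LdBC libraries were far apart in Csn1s2a, with LdBC 2 the higher. The 4 casein genes above lie in a cluster on chromosome 5, with 10045 bases between Csn1s1 and Csn2, 74936 between Csn2 and Csn1s2a, and 136781 between Csn1s2a and Csn3.

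Csn1s1 had 904 and 2056 FPKM in LdBC, 99.3 and 0 in basal and 28.1 in luminal cells. Csn2, which encodes beta-casein, had 2341 and 5232 in LdBC, 731 and 11.8 in basal and 78.2 in luminal cells. Lalba, the alpha-lactalbumin of lactose synthesis, had 31.1 and 60.0 in LdBC, 26.4 and 0 in basal and 0 in luminal cells. Basal 1 thus exceeded Basal 2 in both genes. Lalba was no longer above all others under either rescaling. In limma the adjusted p was 0.151 for Csn1s2a, 0.153 for Csn3, 0.221 for Csn1s1, 0.248 for Csn2 and 0.295 for Lalba. The SE of their log2 differences ran from 1.51 (Csn3) to 2.29 (Csn1s1). Expi (Wfdc18), which encodes a protein of the whey acidic protein family, was the most abundant member, with 10613 and 10246 in LdBC, 303 and 128 in basal and 2724 in luminal cells. The milk fat globule gene Mfge8 had 1870 and 1100 FPKM in LdBC, 331 and 401 in basal and 315 in luminal cells. Muc15, a mucin of the globule membrane, had 92.8 and 101 in LdBC, 7.84 and 1.97 in basal and 0 in luminal cells. Of the members not above, Muc1 had 49.9 and 128 FPKM in LdBC, 3.04 and 0 in basal and 74.4 in luminal cells, and Folr1 had 71.8 and 82.3, 2.77 and 0, and 126 in the same libraries. Folr1 thus lay between the populations, and the LdBC libraries lay on either side of the luminal value for Muc1.

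**Figure D3:**
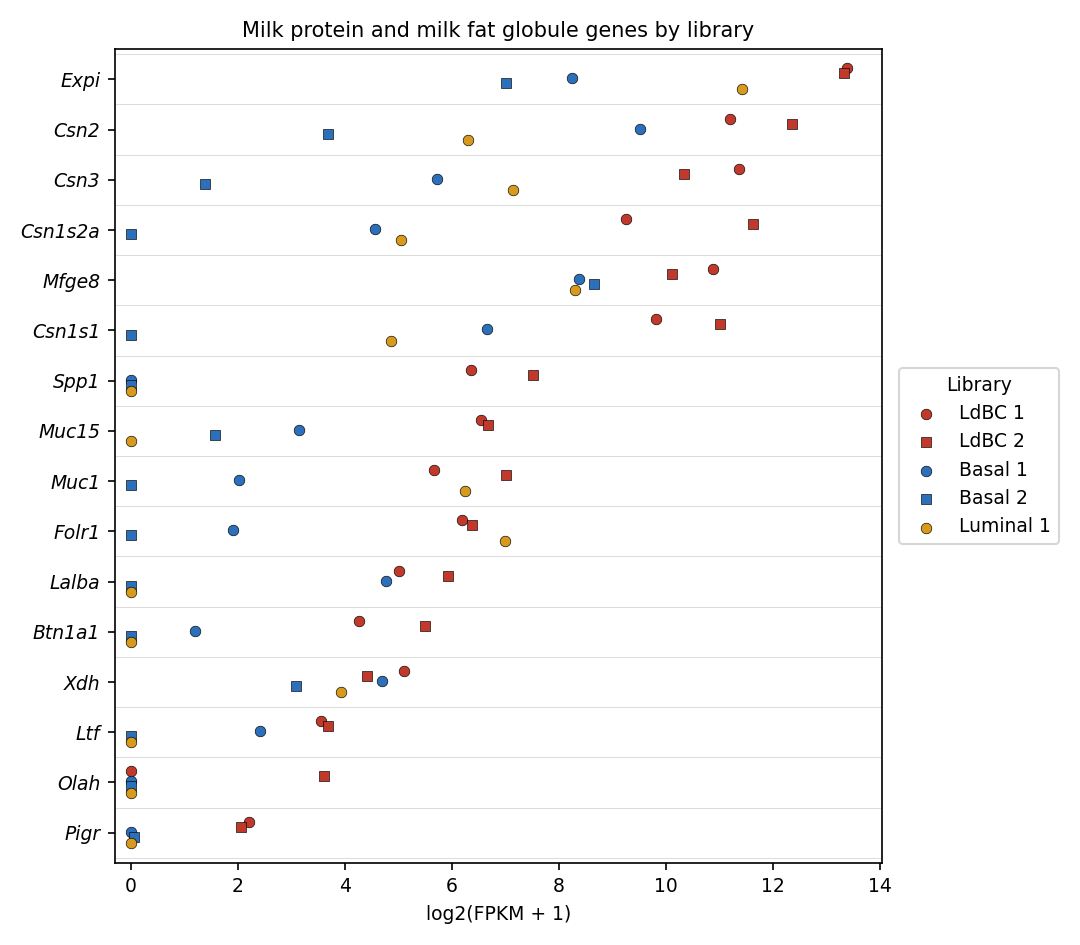
The log2(FPKM + 1) of the 16 tested milk protein and milk fat globule genes by library, ordered by the LdBC mean (red LdBC, blue basal, yellow luminal). LdBC symbols lie to the right in 12 rows, Basal 1 lies right of Basal 2 for all 4 casein genes, and the luminal library lies within or beyond LdBC in Muc1 and Folr1.

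Regulators of luminal progenitors and alveolar cells had 10 of 24 above (41.7%, against 14.7% of all genes) and 2 below, and a median of 1.22. The luminal library listed 3 of the 10 at 0. Elf5, the transcription factor of alveolar fate, had 45.8 and 27.9 FPKM in LdBC, 0 and 0 in basal and 9.94 in luminal cells. Its relative Ehf, 108409 bases away on chromosome 2, had 48.8 and 49.2 in LdBC, 2.43 and 0 in basal and 20.2 in luminal cells. Kit, the receptor of stem cell factor and a mark of luminal progenitors, had 14.4 and 4.36 in LdBC and 0 in all 3 others. Tspan8, a tetraspanin, had 71.0 and 90.9 in LdBC, 4.20 and 11.6 in basal and 0 in luminal cells. The surface protein gene 1600029D21Rik (Plet1) had 7982 and 4265 in LdBC, 242 and 88.0 in basal and 1163 in luminal cells. Socs2, a feedback inhibitor of growth hormone and prolactin signalling, was a member below, with 20.1 and 30.7 FPKM in LdBC, 55.8 and 96.6 in basal and 178 in luminal cells.

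Hormone-sensing luminal genes had a different pattern. Of 18 members 0 lay above and 1 below, against 14.7% and 7.76% of all genes. With median-of-ratios scaling 0 lay above and 3 below, and likewise with quantile normalization. The luminal library was the highest of the 5 in 17, against 38.5% of all tested genes. Calca, a calcitonin gene of hormone receptor-positive cells, had 17.5 and 1721 FPKM in LdBC, 0 and 0 in basal and 41755 in luminal cells. Prlr, the prolactin receptor, had 7.41 and 68.6 in LdBC, 0 and 0 in basal and 743 in luminal cells. Areg, an EGF receptor ligand induced by estrogen, had 25.9 and 211 in LdBC, 0.199 and 2.55 in basal and 1378 in luminal cells. The LdBC libraries were unlike here, since LdBC 2 exceeded LdBC 1 in 16 of the 18 genes, against 54.1% of all tested genes. In Calca, Prlr and Areg both LdBC libraries stayed under the luminal level. These 3 genes were named after their values were seen.

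Luminal keratin and junction genes gave 10 of 24 above (41.7%, against 14.7% of all genes) and 0 below, with a median of 2.74. The luminal library listed 2 of the 10 at 0. Cldn1, a claudin of tight junctions, had 43.3 and 90.1 FPKM in LdBC, 2.54 and 1.85 in basal and 11.2 in luminal cells. Tjp3, a scaffold of tight junctions, had 14.5 and 19.3 in LdBC, 0 and 0 in basal and 0.104 in luminal cells. Pard6b, a polarity protein, had 20.9 and 15.0 in LdBC, 2.83 and 4.21 in basal and 0 in luminal cells. The keratin pair Krt8 and Krt18 was among the 10 above, by small gaps of 0.23 and 0.25 over the luminal library. How reads shared with near-identical gene copies were assigned is not stated for either. Krt18 had 14101 and 12798 FPKM in LdBC, 194 and 172 in basal and 10755 in luminal cells. Krt19, with 1547 and 1729 in LdBC, 19.8 and 5.25 in basal and 2735 in luminal cells, lay between the populations.

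Among adhesion genes, cadherins and integrins had members above and below, in small numbers. These families were taken by symbol after values were seen. Cdh1, E-cadherin, had 113 and 108 FPKM in LdBC, 24.8 and 34.9 in basal and 37.0 in luminal cells. Cdh3, P-cadherin, had 4.33 and 7.43 in LdBC, 44.0 and 42.6 in basal and 23.6 in luminal cells. E-cadherin was thus above both populations and P-cadherin below both. Of 8 cadherin genes 1 lay above (12.5%, against 14.7% of all genes) and 2 below, a position that 7.76% of all genes had. Itgav, the integrin alpha V chain, had 156 and 111 FPKM in LdBC, 50.1 and 50.4 in basal and 47.1 in luminal cells. Itga5, the fibronectin receptor chain, had 0 and 1.10 in LdBC, 9.14 and 8.99 in basal and 14.8 in luminal cells. Itga3, a laminin receptor chain, had 7.23 and 6.0 in LdBC, 24.1 and 27.9 in basal and 34.0 in luminal cells. Of 19 integrin genes 2 lay above (10.5%, against 14.7% of all genes) and 2 below, so the share above was near that of all genes. Besides Itgav the member above was Itgb4, with a gap of 0.03, and it was not above under either rescaling.

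Basal and contractile genes were mostly neither above nor below, as were 8237 of all 10626 tested genes. In these lists the luminal library held 9 of 24 and 12 of 23 genes above 0, and a gene at 0 there cannot lie below. Of 24 basal keratin and regulator genes 2 lay above (8.33%, against 14.7% of all genes) and 1 below, a position that 7.76% of all genes had. Both LdBC libraries were under both basal libraries in 19, a position that 18.6% of all tested genes had. Of 23 contractile genes 1 lay above (4.35%) and 0 below, and both LdBC libraries were under both basal libraries in 17. With median-of-ratios scaling 0 basal genes were above and 0 below, and for contractile genes 0 were above and 1 below. Krt5 had 29.4 and 20.0 FPKM in LdBC, 206 and 201 in basal and 0 in luminal cells. Trp63, the gene of the basal regulator p63, had 0 and 3.57 in LdBC, 24.4 and 20.2 in basal and 0 in luminal cells.

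Of 23 genes of lipid droplets and milk fat, 6 lay above (26.1%, against 14.7% of all genes) and 1 below, with a median of 0.63. The luminal library listed 2 of the 6 at 0. Besides Plin2 these were Btn1a1, the butyrophilin of the milk fat globule, with 18.3 and 44.0 FPKM in LdBC, 1.29 and 0 in basal and 0 in luminal cells. Acsl1, an acyl-CoA synthetase, had 9.38 and 13.0 in LdBC, 2.81 and 0.917 in basal and 0 in luminal cells. Lpl, lipoprotein lipase, had 11.1 and 4.94 in LdBC, 1.68 and 0.0232 in basal and 0.0383 in luminal cells. The member below was Fabp3, a fatty acid binding protein, at 0 in both LdBC libraries, 22.2 and 1.73 in basal and 26.7 in luminal cells.

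Of 25 genes of fatty acid and sterol synthesis, 7 lay above (28%, against 14.7%) and 1 below, and 10 and 9 lay above under the rescalings. The luminal library listed 2 of the 7 at 0. The median of 0.35 turned to -0.09 without Basal 1. The 3 fatty acid desaturases Fads1, Fads2 and Fads3, neighbours on chromosome 19, were all above. Fads1 had 18.6 and 40.1 FPKM in LdBC, 6.09 and 5.89 in basal and 0.0904 in luminal cells. Fads2 had 51.8 and 41.4 in LdBC, 2.55 and 2.70 in basal and 27.3 in luminal cells. Scd1, the stearoyl-CoA desaturase, had 41.4 and 37.0 in LdBC, 3.22 and 2.36 in basal and 17.7 in luminal cells.

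Of 20 genes of calcium and ion transport 5 lay above (25%, against 14.7% of all genes) and 2 below, with a median of 0.43. Kcnn4, a calcium-activated potassium channel, had 101 and 144 FPKM in LdBC, 0 and 0 in basal and 13.3 in luminal cells. Atp2b1, a calcium pump of the plasma membrane, had 68.5 and 73.7 in LdBC, 30.3 and 23.2 in basal and 10.8 in luminal cells. Clca2, a chloride channel regulator, lay below, with 210 and 140 in LdBC, 405 and 386 in basal and 343 in luminal cells. Atp6v1b1, a subunit of the vacuolar proton pump, had 406 and 189 FPKM in LdBC, 0.968 and 1.15 in basal and 15.5 in luminal cells. Its list, of lysosome and proton pump genes, had 3 of 27 above and 3 below, close to the shares over all genes.

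Of 17 glycolysis genes 6 lay above (35.3%, against 14.7% of all genes) and 1 below (5.88%, against 7.76%), with a median of 0.32. Slc2a1, the glucose transporter GLUT1, had 497 and 399 FPKM in LdBC, 194 and 234 in basal and 74.9 in luminal cells. The phosphofructokinase gene Pfkl had 33.8 and 41.3 in LdBC, 14.6 and 13.3 in basal and 0.0837 in luminal cells. Pgam1, a phosphoglycerate mutase, lay below, with 44.9 and 80.0 in LdBC, 203 and 175 in basal and 202 in luminal cells. Of 22 hypoxia target genes 5 lay above (22.7%, against 14.7% of all genes) and 1 below. Pdk1, which restrains pyruvate oxidation, lay above, with 15.4 and 5.41 in LdBC, 0.0988 and 1.06 in basal and 0.0298 in luminal cells. Of 32 oxidative phosphorylation genes 1 lay above (3.12%, against 14.7% of all genes) and 0 below (against 7.76%) as deposited. The luminal library was the highest of the 5 in 30 of them (93.8%, against 38.5% of all tested genes). Among these genes 4 lay above and 2 below with median-of-ratios scaling, and 5 and 2 with quantile normalization. Their median of 0.04 turned to -0.08 and -0.09 under these rescalings.

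Signalling genes gave small counts. Of 15 Notch genes 4 lay above (26.7%, against 14.7% of all genes) and 3 below, and the luminal library listed 2 of the 4 at 0. Their median of 0.51 turned to -0.16 with quantile normalization, to -0.07 at a mean FPKM of at least 5 or without genes at 0 in the luminal library, and to -0.05 without LdBC 1. The receptor Notch3 had 6.46 and 8.47 FPKM in LdBC, 0.201 and 0.0115 in basal and 0 in luminal cells. Hes6, a transcription factor of the Hes family, was at 0 in both LdBC libraries, 3.23 and 4.64 in basal and 32.2 in luminal cells. Notch2 had 13.3 and 10.3 in LdBC, 3.20 and 2.67 in basal and 2.72 in luminal cells. The ligand Jag1 lay below, with 8.86 and 14.6 in LdBC, 38.9 and 61.4 in basal and 16.3 in luminal cells, but not under the rescalings. Notch receptors were thus above and this ligand below as deposited. Of 17 EGF family genes 4 lay above (23.5%, against 14.7% of all genes) and 1 below, with a median of 0.79. Erbb3, a neuregulin receptor, had 27.8 and 22.4 in LdBC, 0.974 and 0.138 in basal and 5.17 in luminal cells. Of 23 genes of ID factors and of BMP and TGF-beta signalling 3 lay above (13%, against 14.7%) and 4 below. The ligand Tgfb3 had 29.8 and 23.7 in LdBC, 6.70 and 4.71 in basal and 0.601 in luminal cells. Id2 and Id3, which inhibit DNA binding by helix-loop-helix factors, lay on opposite sides. Id2 had 178 and 210 in LdBC, 99.7 and 89.5 in basal and 7.32 in luminal cells, and Id3 had 21.7 and 60.6, 117 and 95.7, and 190 in the same libraries. Of 21 Wnt and stem cell genes 2 lay above (9.52%, against 14.7%) and 2 below. Their median of -0.76 turned to 0.17 without LdBC 1, to 0.14 at a mean FPKM of at least 5 and to 0.05 without genes at 0 in any library.

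Ribosomal protein genes had 20 of 32 above (62.5%, against 14.7% of all genes) and 0 below, but by small gaps and with a dependence on scaling. The largest gap, of Rps20, was 0.54 (828 and 679 FPKM in LdBC, 467 and 336 in basal, 411 in luminal). The median of 0.48 was 0.36 with median-of-ratios scaling, where 13 lay above and 1 below, and 0.26 with quantile normalization, where 10 lay above and 2 below. Of 23 genes of the integrated stress response and amino acid supply 6 lay above (26.1%, against 14.7% of all genes) and 0 below. With median-of-ratios scaling 3 lay above and 1 below. Trib3, a target of that response, had 75.3 and 56.6 in LdBC, 35.0 and 33.1 in basal and 22.8 in luminal cells. Of 31 genes of the secretory machinery of the endoplasmic reticulum 3 lay above (9.68%, against 14.7%) and 0 below. Xbp1, a transcription factor of secretory cells, had 446 and 391 in LdBC, 169 and 178 in basal and 265 in luminal cells. Counts for immediate early and heat shock genes (1 of 26 above, 1 below), antigen presentation (0 of 15 in both directions), cell cycle (3 and 1 of 21), extracellular proteases and inhibitors (2 and 1 of 22) and core cell machinery (4 and 1 of 27) were close to or under the share of all genes for genes above.

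**Figure D4:**
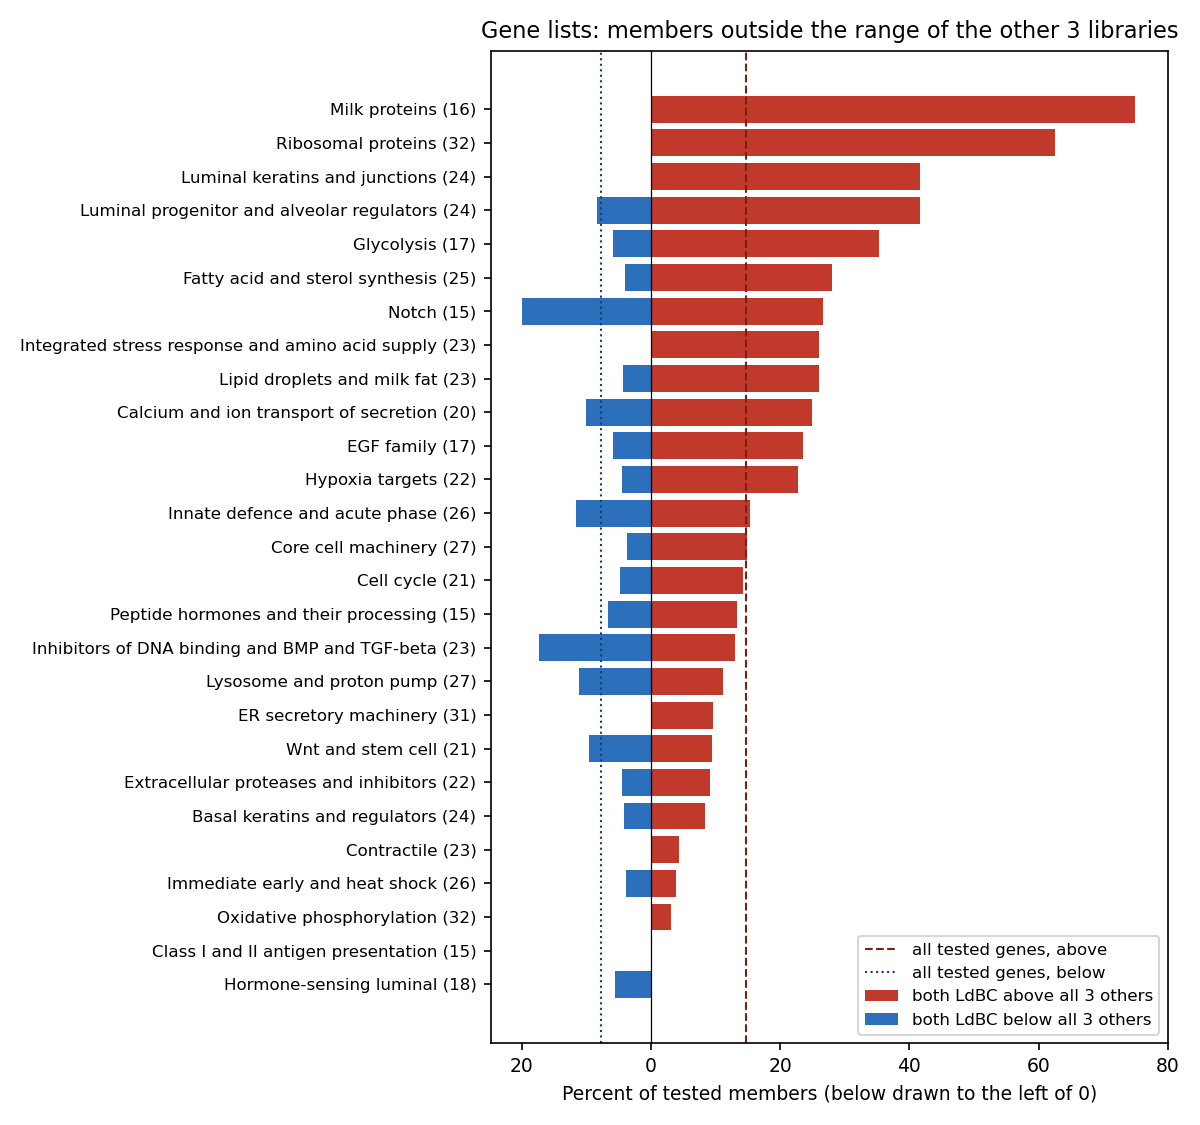
The percent of tested members of each gene list (number in brackets) with both LdBC libraries above all 3 others (red, to the right) or below (blue, to the left), on FPKM as deposited. The dashed line marks 14.7% and the dotted line 7.76%, the shares over all 10626 genes. Milk proteins reach 75%, luminal keratin and junction genes and progenitor regulators follow behind ribosomal proteins, and hormone-sensing and antigen presentation genes have none above.

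Defence genes had 4 of 26 above, near the share over all genes, and 3 below, and the luminal library listed 2 of the 4 at 0. C3, the central complement component, had 132 and 124 FPKM in LdBC, 51.7 and 38.6 in basal and 38.6 in luminal cells. Lbp, which hands lipopolysaccharide to CD14, had 51.3 and 30.4 in LdBC, 13.9 and 19.5 in basal and 0 in luminal cells. Slpi, a secreted inhibitor of leukocyte proteases, lay below, with 244 and 449 in LdBC, 2430 and 1604 in basal and 1008 in luminal cells.

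The genes farthest below were close to 0 in LdBC and at moderate levels in both other populations. Pdgfrl, which encodes a protein like the platelet-derived growth factor receptor, had 0 and 0.0906 FPKM in LdBC, 26.7 and 55.6 in basal and 32.6 in luminal cells. Ctps, the CTP synthase of pyrimidine synthesis, had 0 and 0.289 in LdBC, 29.2 and 39.7 in basal and 20.5 in luminal cells. Mfap2, a microfibril protein of the matrix, had 0 and 4.96 in LdBC, 69.9 and 112 in basal and 65.6 in luminal cells. In all 3 the LdBC libraries stood far under the others. Fkbp14, a prolyl isomerase that helps collagen fold, had 0 and 0.0986 in LdBC, 15.5 and 16.6 in basal and 27.9 in luminal cells. Pcp4, a small regulator of calmodulin, was at 0 in both LdBC libraries, at 9.94 and 7.52 in basal and at 2889 in luminal cells. The dynein light chain gene Tctex1d2 was at 0 in both LdBC libraries too, at 21.1 and 15.4 in basal and 35.8 in luminal cells. Prkar1b, a regulatory subunit of protein kinase A, had 0 and 0.347 in LdBC, 12.1 and 14.4 in basal and 11.6 in luminal cells. The other 5 of the 12 (Nme5, Fam176a, Palmd, N4bp3 and Psmc3ip) had 0 to 1.70 FPKM in LdBC and 8.13 or more in every other library. LdBC 1 listed 10 of these 12 at 0 with LdBC 2 above 0, and it was the less complete LdBC library. Over all genes below, LdBC 1 was at 0 in 252 and LdBC 2 in 123.

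**Figure D5:**
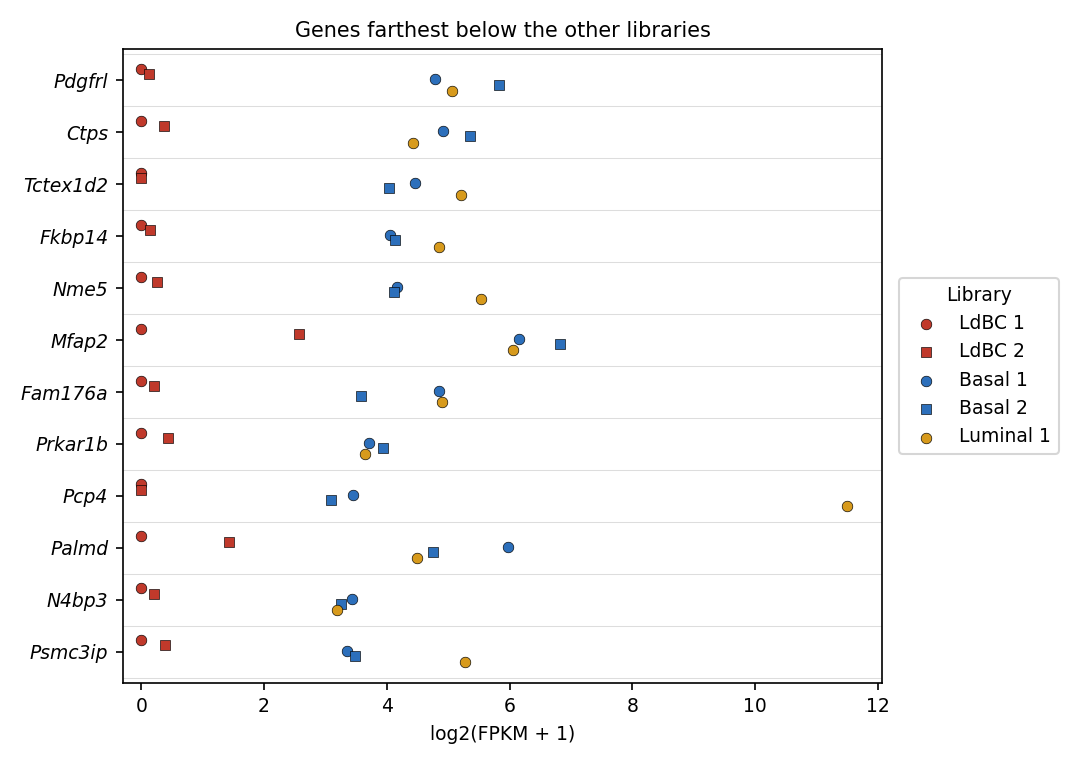
The log2(FPKM + 1) of the 12 genes with the largest gap below the other libraries (red LdBC, blue basal, yellow luminal; circle replicate 1, square replicate 2). LdBC 1 is at 0 in all 12 and LdBC 2 in Tctex1d2 and Pcp4, while Mfap2 and Palmd are above 1 on the log2 scale in LdBC 2.

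Markers of other cells differed by type, and their part in the counts was not tested. The summed FPKM of 10 fibroblast markers was 29.5 and 142 in LdBC, 508 and 484 in basal and 305 in luminal libraries. The proteoglycan gene Dcn made up all of the luminal sum and lay below, with 26.8 and 67.0 in LdBC, 275 and 268 in basal and 305 in luminal cells. Postn had 0 and 74.7 in LdBC, 210 and 199 in basal and 0 in luminal cells. Col1a2 was at 0 in both LdBC libraries and in the luminal library. The 7 immune markers summed to 26.6 and 26.4 in LdBC, 22.8 and 5.93 in basal and 33.1 in luminal libraries. Of these Cd52 lay above (9.14 and 6.10 in LdBC, 0 in all others). Cd68 had 17.5 and 8.76 in LdBC, 7.18 and 3.86 in basal and 33.1 in luminal cells. C1qa had 9.76 in LdBC 2 and 0 in all others, and Coro1a had 0 and 1.81 in LdBC. Lyz2, C1qb and Laptm5 were at 0 in both LdBC libraries and in the luminal library. The 9 endothelial markers summed to 5.75 and 7.37 in LdBC, 192 and 7.64 in basal and 7.45 in luminal libraries, so Basal 1 alone was high. The 7 pericyte markers summed to 19.7 and 16.0 in LdBC, 42.9 and 33.2 in basal and 14.4 in luminal libraries. Notch3 was the member above. Mcam had 13.2 and 0.134 in LdBC, Rgs5 had 0 and 5.24, and Pdgfrb had 0 and 2.17. Cspg4, Cox4i2 and Des were at 0 in both LdBC libraries. The 2 adipocyte markers in the table (Fabp4 and Lipe) summed to 16.9 and 24.7 in LdBC, 477 and 1.49 in basal and 67.2 in luminal libraries. The 2 red cell markers summed to 1.02 and 27.5, 0.708 and 3.91, and 1275 in the same libraries, and the 5 Schwann cell markers, Sox10 and Mbp among them, to 69.5 and 76.7, 85.1 and 74.7, and 15.0.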

How the data were processed

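RNA of about 50 sorted cells per library was reverse-transcribed and amplified by a modified Smart-seq2 protocol, per the labels' protocols. No molecular identifiers or strand marks are described, so amplified copies and antisense or overlapping transcripts were treated as not separable. TopHat2 2.0.4, Cufflinks 2.0.2 and Cuffdiff 2.0.2 with build mm10 are listed in the submitters' processing notes, and the sources used here do not name the annotation. The deposited values are log2(FPKM + 1) per gene and library. The base was read from the values: with base 2, at least 99.69% of them return to an FPKM of 6 significant digits. Every gene reached an FPKM above 1 in some library (lowest 1.0003). Of 12311 rows, 18 spreadsheet dates were left out.

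FPKM values are not counts, so limma 3.58.1 with an intensity trend was run in R 4.3.3 on log2(FPKM + 1), so the pseudocount was 1, over 10626 genes of mean FPKM 1 or more. The fit had a mean per group, and the contrast was LdBC minus the mean of the 3 other libraries (basal weight 66.7%). The luminal group has 1 library, assumed to vary like the others. The residual degrees of freedom were 2, with 1.65 from the prior. P-values are two-sided with Benjamini-Hochberg adjustment, called under 0.05. Log2 differences understate changes of low genes. Gene positions are those of GENCODE for GRCm38.

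Named genes were the 12 per direction with the largest gap and an FPKM of at least 5 on the higher side (predicted genes left out), 4 markers, defining markers of cell types, and up to 4 members outside the range per list, with the largest gaps. The genes and the 35 lists were chosen with earlier results of these data known. Symbol families, further milk genes, Elf5, Ehf, Socs2 and Jag1 were chosen after their values were seen. Alternatives were pseudocounts, filters, scalings, weights, fits and left-out libraries. The test was run on simulated data first. Replicate numbers of LdBC and basal libraries were not treated as pairs in the main fit.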

Additional observations from a re-analysis of the deposited data

How the results depend on the processing

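Counts of genes called in LdBC against the other 3 libraries were 0 higher and 0 lower with pseudocounts of 0.1 and 5, no filter, median-of-ratios scaling, no trend, equal weights, a 2-group fit, and without genes at 0 in the luminal library. They were 63 higher and 88 lower at a mean FPKM of at least 5, 4 higher with quantile normalization, and 58 higher and 4 lower without genes at 0 in any library. Of the fits with a library left out, only the fit without the luminal library gave calls, 51 higher and 5 lower. That fit compared LdBC with basal cells alone. The count of genes above was 954 without genes at 0 in the luminal library, 893 without genes at 0 in any library and 419 with a gap over 1, a limit chosen after seeing the data. Genes below numbered 1261 with quantile normalization, 546 without genes at 0 in any library and 182 with a gap over 1. Leaving out each library gave 1895 to 3251 genes above, where the rule asks less, and 1110 to 2181 below. Among these were 2958 above and 1471 below without LdBC 1, 2849 and 2181 without LdBC 2, and 3251 and 1962 without the luminal library. Calls in the same direction against basal and luminal numbered 0 in every setting run and cannot be defined without the luminal library.

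Replicate numbers 1 and 2 were not treated as pairs in the main fit. Deviations of same-numbered LdBC and basal libraries correlated at 0.012 over 10626 genes. With 2 pairs, this cannot decide whether same-numbered libraries share an origin. The fit with a replicate block called 0 genes, with 1590 at an unadjusted p under 0.05 and a smallest adjusted p of 0.268 (limma). The 26 leading genes and markers kept their position under both scalings. Pseudocounts and filters cannot change a position, and these genes were picked for large gaps or as known markers. Of 409 alternative tests of these genes, 31 passed, with adjusted p between 0.00305 and 0.868 in limma. Most that passed came from 1 setting, a mean FPKM of at least 5, each there with an adjusted p of 0.0481 in limma. The direction changed in 0 tests, which the choice of genes outside the range largely fixed in advance. For each list the spread was taken as the standard deviation of its median level between LdBC 1 and LdBC 2. That spread does not measure the error of the difference from the other libraries. List medians moved by more than the spread in 164 of 445 alternatives over 33 lists and changed sign in 62. FPKM values give no depth, so how far a listed 0 limits a gene is unknown.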

Other observations

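Of 171 genes named as solute carriers, which bring nutrients and ions across membranes, 23 lay above and 16 below, shares near those over all genes (14.7% and 7.76%). The family was taken by symbol after values were seen. Slc28a3, a concentrative nucleoside transporter, had 79.1 and 104 FPKM in LdBC, 1.80 and 0 in basal and 4.08 in luminal cells. Slc22a4, a carnitine and ergothioneine transporter, had 118 and 85.8 in LdBC, 19.3 and 18.6 in basal and 0 in luminal cells. Slc20a1, a phosphate transporter, had 261 and 188 in LdBC, 74.7 and 106 in basal and 25.0 in luminal cells, while its relative Slc20a2 had 7.18 and 6.0 in LdBC, 15.6 and 18.5 in basal and 14.2 in luminal cells. The 2 phosphate transporters thus stood on opposite sides. Slc7a7, a light chain of amino acid exchangers, was at 0 in both LdBC libraries, 4.23 and 6.44 in basal and 39.2 in luminal cells. Mucins had 3 of 4 above (75%, against 14.7% of all genes), led by Muc20 (76.3 and 56.0 in LdBC, 1.96 and 0 in basal, 0 in luminal). Semaphorins and plexins, guidance ligands and their receptors, had 0 of 14 above and 4 below, against 14.7% and 7.76% of all genes. Among the 4 was Sema3c (2.33 and 1.77 in LdBC, 6.06 and 8.72 in basal, 32.1 in luminal). The gaps of Sema4b and Sema3f were only 0.35 and 0.08, and Sema4b was not below with quantile normalization. Both families were also taken by symbol after values were seen.

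Abundant transcripts outside the range were picked after values were seen, as those with both LdBC libraries at 200 FPKM or more and a gap over 1 (20 genes), or with all 3 others at 50 or more and a gap over 1 on the low side (11 genes). Trf, the iron carrier transferrin, had 4412 and 4821 FPKM in LdBC, 915 and 1251 in basal and 723 in luminal cells. Ceacam1, a cell adhesion receptor, had 984 and 786 in LdBC, 10.6 and 12.9 in basal and 234 in luminal cells. Lgals3, which encodes galectin 3, had 1040 and 618 in LdBC, 15.0 and 9.47 in basal and 279 in luminal cells. Csf3, the granulocyte colony-stimulating factor, had 973 and 240 in LdBC, 48.6 and 12.6 in basal and 83.7 in luminal cells, so its LdBC libraries were far apart. Plaur, the urokinase receptor, had 1206 and 582 in LdBC, 285 and 285 in basal and 217 in luminal cells, and lies 75793 bases from Kcnn4 on chromosome 7. On the low side, Cav1, the coat protein of caveolae, had 7.32 and 17.2 in LdBC, 95.7 and 68.0 in basal and 53.8 in luminal cells. Gsn, an actin-severing protein, had 62.2 and 94.4 in LdBC, 196 and 223 in basal and 1674 in luminal cells. Sphk1, a sphingosine kinase, had 47.5 and 71.6 in LdBC, 196 and 182 in basal and 145 in luminal cells, whereas the sphingosine-1-phosphate exporter Spns2 lay above.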
